A study of Mus musculus with 9 samples.

Results

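The genes described here are those of the MHC class I pathway and the immunoproteasome: the heavy chains H2-K1 and H2-D1, the light chain B2m, the peptide loading genes Tap1, Tap2 and Tapbp, the immunoproteasome subunits Psmb8, Psmb9 and Psmb10, and the transactivator Nlrc5. They were chosen by symbol, with the transcript cluster of highest mean taken where a symbol had several. Of the 10 symbols, 9 had a cluster, 1 each, among the 22206 transcript clusters of the array (a cluster is the array's unit of measurement for a gene), and Nlrc5 was not analysed here because no cluster carried its symbol. Total RNA came from thymic lobes of C57BL/6 embryos at e13.5 and was hybridised to Affymetrix Clariom S arrays, 1 array per sample. The 3 genotypes had 3 arrays each: wild type, Foxn1933/1089 (called Foxn1 mutants) and Tbx1neo2/neo2 (called Tbx1 mutants). The arrays are called W1 to W3 for wild type, F1 to F3 for Foxn1 mutants and T1 to T3 for Tbx1 mutants. The series title describes the Foxn1 mice as compound heterozygotes. Whether each sample is a separate embryo, and how many lobes it held, is not in the labels, so a p-value here reflects only how these samples vary, which may be technical. The number of arrays limits the precision of each value.

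MHC class I molecules carry short peptides from inside the cell to its surface, where CD8 T cells and their precursors read them. The proteasome cuts proteins into peptides, the TAP transporter (Tap1 with Tap2) moves them into the endoplasmic reticulum, tapasin (Tapbp) helps load them, and a heavy chain bound to B2m holds them. In the immunoproteasome Psmb8, Psmb9 and Psmb10 take the places of the standard catalytic subunits Psmb5, Psmb6 and Psmb7. It is abundant in blood-derived cells and is induced by interferon in many others. In cortical thymic epithelium another subunit, Psmb11, takes the place of Psmb5 or Psmb8. Nlrc5 acts at class I promoters through a set of boxes bound by other factors.

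W1 and F2 stood apart from the other 7 arrays, so results are given with and without them. On both, the thymic epithelial protease gene Prss16 read 4.24 and 4.45 (log2), against 13.87 to 14.43 on the other arrays, and Ptprc, the pan-leukocyte gene CD45, read 6.44 and 5.87 against 10.26 to 12.36. For scale, the median of the negative controls lay between 4.27 and 4.94 on the 9 arrays. A member is called near background on the arrays where it did not exceed that median. These were W1, F1 and F2 for Tap2, W1 and F2 for Psmb9 and Psmb10, W1 for Psmb8 and F2 for H2-D1. The labelled tissue was thus marked on 7 arrays, while Prss16 was at the negative-control level on the other 2. Foxn1, the factor that drives thymic epithelial differentiation, read 7.78, 10.35 and 10.01 in wild type, 9.02, 8.73 and 9.67 in Foxn1 mutants, and 8.88, 10.04 and 9.70 in Tbx1 mutants. Tbx1 read 4.25 to 5.85 in wild type, 4.07 to 4.83 in Foxn1 mutants and 4.80 to 5.38 in Tbx1 mutants. The sources used here do not say where the probes lie relative to the altered parts of either gene, so these levels do not check the genotype labels. In whole lobes, fewer cells of a type and less RNA per cell cannot be told apart.

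No member was called different between genotypes. The largest shifts lay within genotypes: Psmb9, Psmb10 and Psmb8 spanned 8.22, 5.12 and 5.17 log2 units over the 9 arrays, while B2m spanned 1.16. With the 2 arrays that stood apart left out, all 9 members had a lower mean in Tbx1 mutants than in wild type, by 0.32 to 1.57 log2 units, and none of these differences passed the test after adjustment. Of all clusters 51.5% were lower in that fit. Between both genotypes only W3 and T1 then share a date code of the sample titles.

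Of the 10 symbols, 8 matched an entry in RefSeq's promoter windows (assembly GRCm38.p6, 250 bases before to 50 after each gene start). Tap2 and Nlrc5 were not matched. The upstream stretches of B2m, H2-K1 and H2-D1 are shown because both chains of the class I molecule share 1 arrangement: the letters TGACG, then 20 bases, then ATTGG. Each runs from 50 bases before TGACG to 50 bases after ATTGG, or to the base before the first annotated gene start where that comes sooner (B2m and H2-K1). They are written 5′ to 3′ along the gene, and capitals mark TGACG and ATTGG, or the latter's reverse complement CCAAT.

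B2m upstream stretch (chr2:122147559-122147686, plus strand): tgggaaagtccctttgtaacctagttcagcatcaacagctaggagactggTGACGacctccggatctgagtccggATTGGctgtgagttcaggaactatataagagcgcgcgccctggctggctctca

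H2-K1 upstream stretch (chr17:34000348-34000438, minus strand): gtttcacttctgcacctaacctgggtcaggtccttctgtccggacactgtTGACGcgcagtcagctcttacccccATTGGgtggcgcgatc

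H2-D1 upstream stretch (chr17:35262943-35263072, plus strand): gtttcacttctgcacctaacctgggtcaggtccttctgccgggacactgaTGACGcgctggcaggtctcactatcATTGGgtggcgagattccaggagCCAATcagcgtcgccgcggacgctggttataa

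The TGACG of this arrangement began 78 bases before the start of B2m, 41 bases before the first start of H2-K1 and 101 bases before that of H2-D1. The arrangement, read on either strand, was present in 3 of the 8 matched members and in 31 of all 32851 windows (0.0944%). It was picked after these sequences were seen, so its count among the members is a description. H2-K1 and H2-D1 are alike in sequence and are not separate finds. Of the genes in the pathway lists below, H2-M3 held it too. With 18 to 22 bases allowed between both motifs, the same 3 members and 88 windows held it (0.268%). H2-M3, H2-Q7 and Jak1 of those lists then did too. A match describes letters and not a bound site. TGACG is the core of a CREB site and ATTGG that of an NF-Y site. In the textbook account the boxes that Nlrc5 needs include both.

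Among single motifs, searched on both strands, ATTGG was in 6 of 8 matched members and 37.4% of all windows, and TGACG in 5 of 8 and 20.8%. These are not counts of separate sites. The windows of Tap1 and Psmb9 overlap, and the same ATTGG and the same TGACG are counted for both. H2-K1 and H2-D1 are alike in sequence. GGGANNNCC, a core of NF-kB sites, was in H2-K1 and H2-D1 and in 18.6% of all windows. GAAANNGAA, an interferon regulatory factor repeat, was in B2m and in 8.56% of all windows, and TTCNNNGAA, a STAT palindrome, was in Psmb8 and in 8.30%. ATTGG and TGACG are also the parts of the arrangement above. The absence of a match says only that these letters are not in the window.

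Tap1 and Psmb9 start back to back on chromosome 17 and their windows share 275 of 300 bases. The 225 bases between both starts are shown, along the Tap1 strand, because 1 stretch serves the gene pair. TGACG stands 86 bases before the Tap1 start and CCAAT lies next to the Psmb9 start, with the same capitals as above.

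Tap1 to Psmb9 stretch (chr17:34187331-34187555, plus strand): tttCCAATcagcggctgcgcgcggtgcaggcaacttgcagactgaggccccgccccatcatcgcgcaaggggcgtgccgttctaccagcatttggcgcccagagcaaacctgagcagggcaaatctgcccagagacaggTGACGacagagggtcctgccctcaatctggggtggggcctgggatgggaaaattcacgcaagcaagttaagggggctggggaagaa

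H2-K1, a classical heavy chain, read 9.86, 11.36 and 9.87 in wild type, 9.86, 8.57 and 10.47 in Foxn1 mutants, and 9.49, 9.36 and 9.29 in Tbx1 mutants. The Tbx1 mutant arrays lay close together and below all wild type arrays, while the Foxn1 mutants overlapped with both. The mean was 10.36 ± 0.86 (SD, n = 3) in wild type, 9.63 ± 0.97 in Foxn1 mutants and 9.38 ± 0.10 in Tbx1 mutants. The difference of Tbx1 mutants from wild type was -0.98 ± 0.52 (SE) on the log2 scale, with an adjusted p of 1.00 in limma. H2-K1 was the only 1 of 9 members whose Tbx1 mutant and wild type arrays did not overlap, on the lower side, where 4.27% of all clusters did the same. No member was separated on the higher side (5.18% of all clusters).

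H2-D1, the other classical heavy chain, read 5.24, 7.48 and 6.23 in wild type, 6.47, 4.30 and 6.40 in Foxn1 mutants, and 5.39, 5.33 and 5.14 in Tbx1 mutants. It exceeded the negative-control median on 8 of 9 arrays, and its lowest array was F2. Class I heavy chain genes are alike in sequence, and the sources used here do not give the probes, so signal shared between H2-K1, H2-D1 and their relatives cannot be told apart. Its mean was 6.32 ± 1.12 (SD, n = 3), 5.72 ± 1.23 and 5.29 ± 0.13 in the 3 genotypes in that order. Tbx1 mutants differed from wild type by -1.03 ± 0.65 (SE; limma, adjusted p = 1.00), and W1 lay among the Tbx1 mutants.

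B2m, the light chain shared by all class I molecules, read 13.10, 13.55 and 12.90 in wild type, 13.22, 12.51 and 13.15 in Foxn1 mutants, and 13.14, 12.84 and 12.39 in Tbx1 mutants. Its groups overlapped, and its range of 1.16 log2 units was exceeded by many genes: 56.0% of all clusters had a smaller one. By the same measure, 94.9% of clusters had a smaller range than H2-K1 (2.79) and 96.2% a smaller one than H2-D1 (3.18). The means of B2m were 13.18 ± 0.33, 12.96 ± 0.39 and 12.79 ± 0.38 (SD, n = 3) in wild type, Foxn1 mutants and Tbx1 mutants.

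Tap1, one chain of the peptide transporter, read 5.35, 8.01 and 7.69 in wild type, 7.92, 5.21 and 7.81 in Foxn1 mutants, and 6.63, 7.88 and 6.68 in Tbx1 mutants. W1 and F2 were the lowest arrays, and the genotype means were nearly equal at 7.02 ± 1.45, 6.98 ± 1.53 and 7.06 ± 0.71 (SD, n = 3). Tap2, the other chain, was near background, above the negative-control median on 6 of 9 arrays. It read 4.16, 5.06 and 5.09 in wild type, 4.25, 3.97 and 4.84 in Foxn1 mutants, and 4.66, 5.02 and 4.60 in Tbx1 mutants. Its groups overlapped, and at this signal a change in Tap2 would be hard to see.

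Tapbp, tapasin, which bridges the transporter and empty class I molecules, read 7.43, 9.96 and 8.95 in wild type, 9.40, 8.01 and 9.07 in Foxn1 mutants, and 8.66, 9.10 and 8.79 in Tbx1 mutants. The same 2 arrays were lowest, and the groups overlapped. Its means of 8.78 ± 1.27, 8.83 ± 0.73 and 8.85 ± 0.23 (SD, n = 3) differed by less than the spread within wild type.

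**Figure D1:**
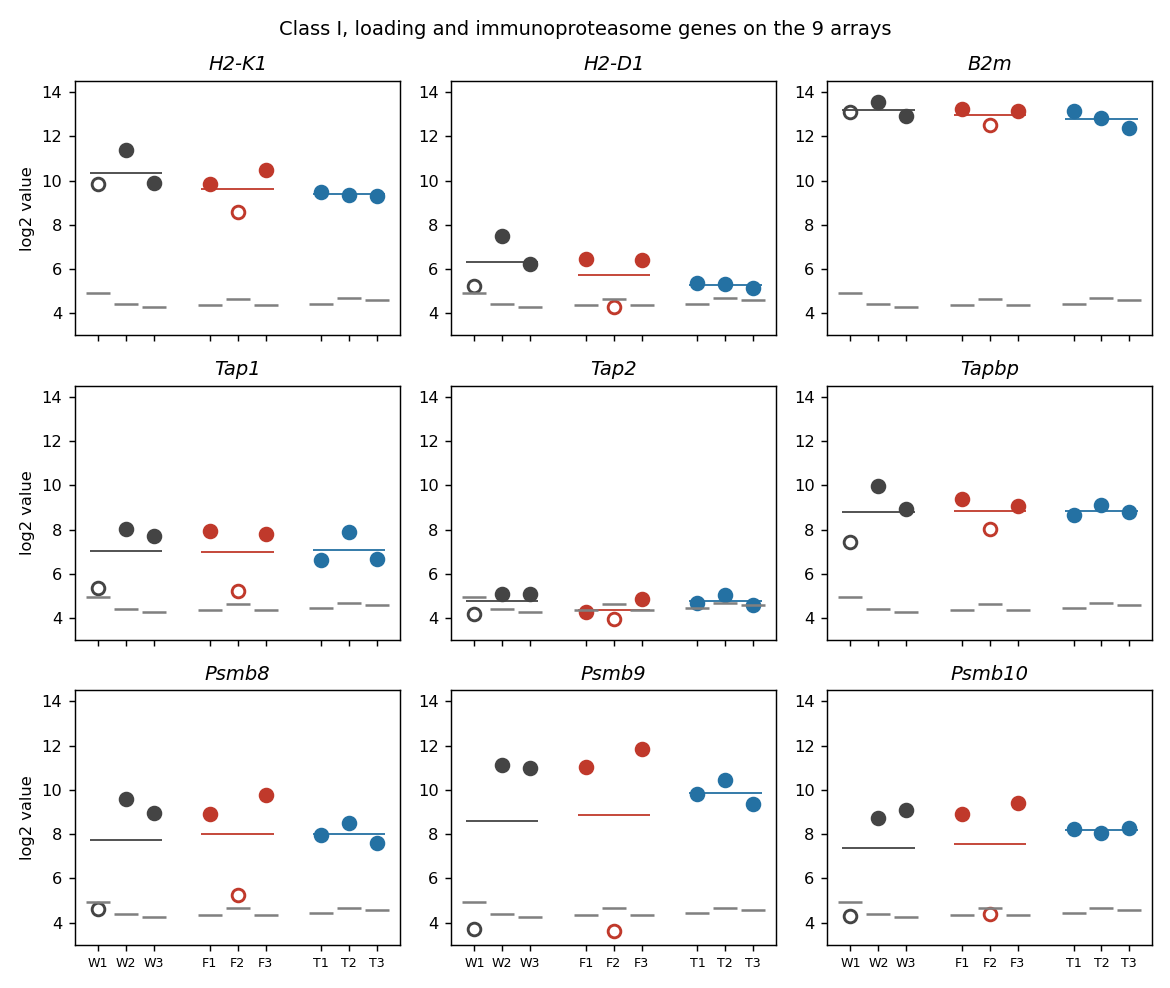
Deposited log2 signal (vertical axis) of the 9 measured members on the 9 arrays, 1 panel per gene, with 1 point per array grouped by genotype (n = 3 each), coloured lines for genotype means, open circles for W1 and F2, and grey dashes for the array's negative-control median. The open circles are the lowest ones in the panels of Tap1, Tap2, Tapbp, Psmb8, Psmb9 and Psmb10, and the Tbx1 mutant points lie close together for H2-K1, from 9.29 to 9.49.

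Psmb9, the immunoproteasome subunit that takes the place of Psmb6, read 3.71, 11.11 and 11.00 in wild type, 11.04, 3.64 and 11.87 in Foxn1 mutants, and 9.82, 10.44 and 9.35 in Tbx1 mutants. On W1 and F2 it was below the negative-control median, and on the other 7 arrays it was far above it. Its range of 8.22 log2 units was larger than that of 99.8% of all clusters. Without both arrays the range was 2.51.

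Psmb10, which takes the place of Psmb7, read 4.31, 8.75 and 9.10 in wild type, 8.93, 4.38 and 9.43 in Foxn1 mutants, and 8.26, 8.07 and 8.26 in Tbx1 mutants. The pattern was that of Psmb9: the same 2 arrays were below the negative-control median, and the Tbx1 mutants lay between them and the remaining arrays. Psmb8, which takes the place of Psmb5, read 4.61, 9.60 and 8.96 in wild type, 8.93, 5.26 and 9.78 in Foxn1 mutants, and 7.98, 8.49 and 7.62 in Tbx1 mutants. Here W1 was below the negative-control median and F2 somewhat above it.

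The 3 subunits had standard deviations of 2.67 to 4.24 log2 units within wild type and 2.40 to 4.53 within Foxn1 mutants, against 0.11 to 0.55 within Tbx1 mutants, a genotype without an array that stood apart. For all 3 the genotype means lay inside that spread. Psmb9 averaged 8.61, 8.85 and 9.87, Psmb8 7.72, 7.99 and 8.03, and Psmb10 7.39, 7.58 and 8.20 in wild type, Foxn1 mutants and Tbx1 mutants.

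Of the standard subunits, Psmb6 kept within 13.28 to 14.03 and Psmb7 within 12.92 to 13.52 on the 9 arrays, while no cluster was named Psmb5. Psmb11, the subunit of cortical thymic epithelium, read 3.40, 10.66 and 10.36 in wild type, 10.37, 3.36 and 10.49 in Foxn1 mutants, and 9.52, 10.44 and 10.43 in Tbx1 mutants. It was thus low on the same 2 arrays as Psmb9 and Psmb10, but the Tbx1 mutants did not lie below the other arrays. The 11 structural subunits of the 20S core all had those 2 arrays as their lowest, with small ranges of 0.56 to 1.42 log2 units (median 1.04).

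**Figure D2:**
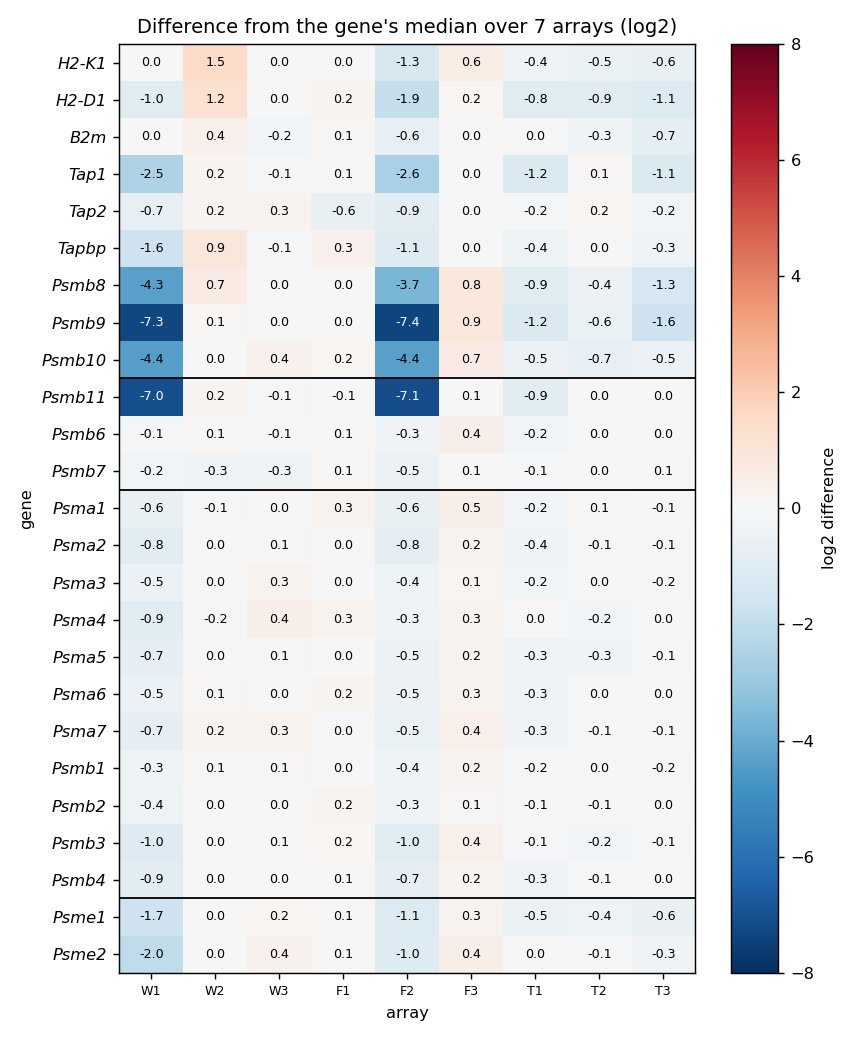
Difference (log2, colour and number) of each member, Psmb11, the standard subunits Psmb6 and Psmb7, the 11 structural 20S subunits, Psme1 and Psme2 from the gene's own median over the 7 arrays other than W1 and F2, with genes down the side and arrays along the bottom. Psmb8, Psmb9, Psmb10 and Psmb11 are darkest on those 2 arrays, where Psmb9 read 3.71 and 3.64, while Psmb6 stays within 0.75 log2 units over all arrays.

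For 6 of the 9 members (Tap1, Tap2, Tapbp, Psmb8, Psmb9 and Psmb10) W1 and F2 were the lowest arrays, as they were for 12.1% of all clusters. H2-K1, H2-D1 and B2m did not show this. For H2-K1 both W1 and F1 read 9.86. In the leukocyte list 8 of 10 markers had those 2 arrays lowest, and the mean level of the list was 6.51 and 6.54 there against 8.79 to 9.83 on the others. In the T lineage list it was 6 of 7 (4.25 and 4.22 against 6.89 to 9.07), and in the thymic epithelium list 7 of 8 (5.20 and 5.32 against 8.67 to 9.23). In the general epithelium list it was 6 of 8 (10.17 and 10.38 against 12.00 to 12.64). Psmb11 is on the thymic epithelium list too. Macrophage markers did not have them lowest (0 of 8). The macrophage mean on these 2 arrays was 6.70 and 8.08, against 6.85 to 7.49 on the others. For dendritic markers it was 0 of 6, but their mean was 3.67 to 4.07, below the negative-control median of every array. Of the 6 markers 3 exceeded that median on no array. The number that did exceed it was 2 on W1, 2 on F2 and 1 to 3 on the others. So few markers cannot show whether dendritic signal was kept on W1 and F2. Neuron markers, 8 in number, averaged 12.08 on W1 against 5.42 to 5.84 on the other 8 arrays, and mesenchyme markers averaged 12.86 on F2 against 11.10 to 12.26. The part of these cell types in the members' levels was not tested.

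**Figure D3:**
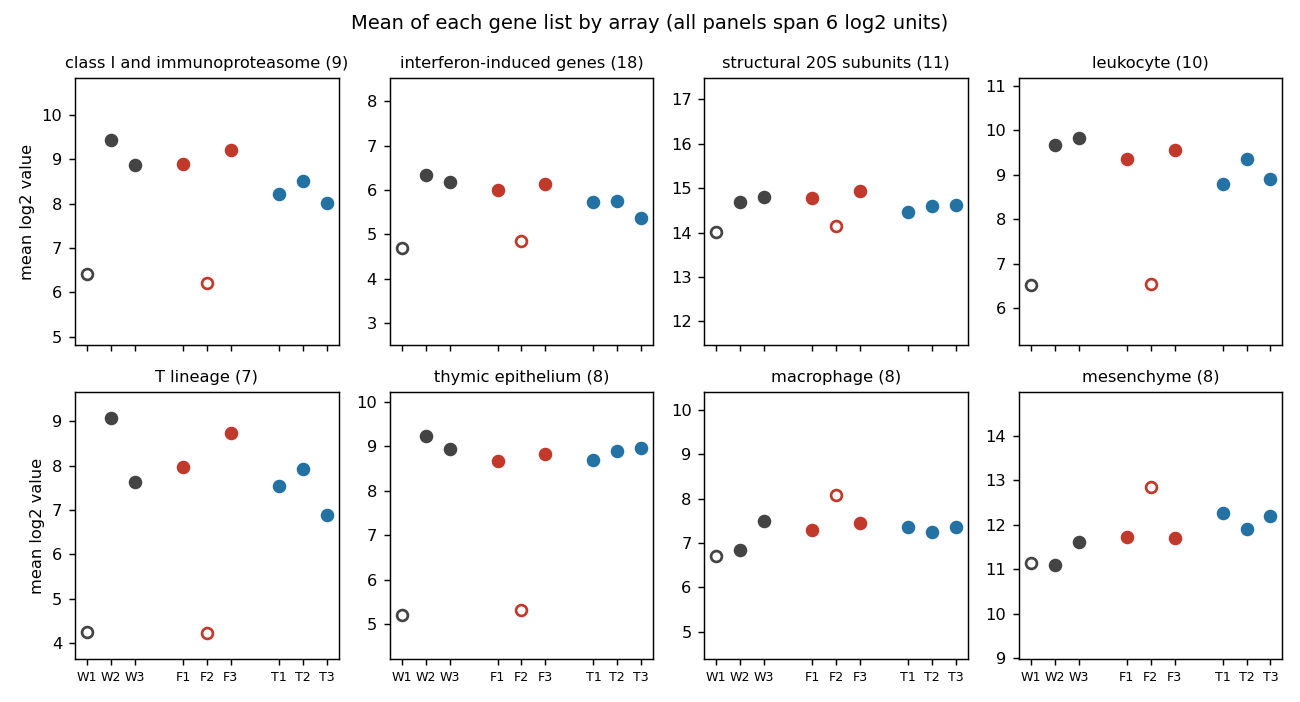
Mean log2 level (vertical axis, 6 log2 units in each panel) of the 9 members and of gene lists on each of the 9 arrays (horizontal axis, coloured by genotype), 1 panel per list with its number of genes, and open circles for W1 and F2. The members are at 6.42 and 6.21 on W1 and F2, where leukocyte, T lineage and thymic epithelium markers are low too, and lie between 8.01 and 9.43 on the other arrays.

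Over all 9 arrays the tests called no member. Foxn1 mutants minus wild type gave 0 of 9 members (0% of all clusters), Tbx1 mutants minus wild type 0 of 9 (0.0135% of clusters, 3 in number), Foxn1 minus Tbx1 mutants 0 of 9 (0%), and the F test over the 3 genotypes 0 of 9 (0.00901%). The tool was limma, with Benjamini and Hochberg adjustment over 22206 clusters and a threshold of 0.05. At an unadjusted p under 0.05, 0 members passed in any of these tests, where 898, 841, 661 and 715 clusters passed. The adjusted p of each member was 1.00 when rounded.

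For Foxn1 mutants minus wild type, H2-K1 differed by -0.73 ± 0.52 (SE), H2-D1 by -0.59 ± 0.65, B2m by -0.22 ± 0.29 and Tap2 by -0.42 ± 0.32. The remaining members lay between -0.03 for Tap1 and 0.27 for Psmb8, with SEs of up to 1.46 apart from Psmb9, whose SE was 2.34. In this comparison no member's arrays were separated, where 4.86% of all clusters were higher and 3.43% lower without overlap. The median over the members was -0.03, against 0.02 over all clusters.

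For Tbx1 mutants minus wild type, B2m differed by -0.39 ± 0.29 (SE), Psmb9 by 1.26, Psmb10 by 0.81 and Psmb8 by 0.31, and the median over the members was 0.05. Only 4 of 9 members were lower, and the mean of wild type includes W1, the array with the lowest Psmb8 and Psmb10. For Foxn1 minus Tbx1 mutants the median was -0.04, from -1.02 for Psmb9 to 0.44 for H2-D1, and no member was separated (5% of all clusters higher, 3.91% lower).

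Without W1 and F2 the sign turned for 5 of the 9 differences between Tbx1 mutants and wild type. H2-D1 was then -1.57 ± 0.34 (SE), H2-K1 -1.24 ± 0.40, Psmb8 -1.25 ± 0.36, Psmb9 -1.19 ± 0.36 and Psmb10 -0.73 ± 0.24. Tap1 was -0.79 ± 0.37, Tapbp -0.61 ± 0.32, B2m -0.43 ± 0.29 and Tap2 -0.32 ± 0.25. The lowest adjusted p was that of H2-D1 (limma, 0.318), so that none was called, where 0.00901% of all clusters were. The first 5 of these members had an unadjusted p under 0.05 on the lower side, and 4.51% of all clusters did. Between both genotypes only W3 and T1 then share a date code of the sample titles, so genotype and code can hardly be told apart. T1 minus W3, 1 array against 1, was -0.84 for H2-D1, -0.38 for H2-K1 and -1.18 for Psmb9, and 8 of 9 members were lower. The share of all clusters lower on T1 than on W3 was not counted, so this number has nothing to be set against.

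Read array by array, the same values are not a further test. Here F1 and F3 are set beside W2 and W3. Psmb8, Psmb9, Psmb10, H2-K1 and H2-D1 were lower on each of the 3 Tbx1 mutant arrays than on W2, W3, F1 and F3, as 5.71% of all clusters were. For Psmb9 the Tbx1 mutants read 9.35 to 10.44 and these 4 arrays 11.00 to 11.87. For H2-D1 the ranges were 5.14 to 5.39 and 6.23 to 7.48. For H2-K1 they were 9.29 to 9.49 and 9.86 to 11.36. Of the leukocyte markers 4 of 10 were lower in this way (Ptprc, Coro1a, Rac2 and Vav1), with Ptprc at 10.56, 11.57 and 10.26 in Tbx1 mutants against 11.82 to 12.36. Of the T lineage markers 1 of 7 was (Cd7), and of the thymic epithelium markers 0 of 8.

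Markers of other cells differed in mean between the same arrays. In Tbx1 mutants minus wild type without W1 and F2, the median was -0.90 over the T lineage markers (7 of 7 lower) and -0.78 over the leukocyte markers (9 of 10 lower), beside -0.79 over the members (9 of 9 lower). Over all clusters the median was -0.012 (51.5% lower). The median was -1.40 over the red cell markers (5 of 5 lower), -0.74 over the skeletal and heart muscle markers (6 of 8 lower) and -0.22 over the thymic epithelium markers (6 of 8 lower). Endothelium markers had a median of 0.33 (7 of 8 higher) and mesenchyme markers one of 0.86 (7 of 8 higher). The medians of the epithelium, neuron, dendritic and macrophage lists lay between -0.20 and 0.11. No marker of these lists was called there. The part of these cell types in the members' lower level was not tested.

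Foxn1 minus Tbx1 mutants, without both arrays, was 1.58 for Psmb9, 1.32 for Psmb8, 1.15 for H2-D1 and 0.98 for Psmb10. These 4 had an unadjusted p under 0.05 on the higher side (4.71% of all clusters), and none was called after adjustment (lowest 0.357, limma, where 0.00901% of clusters were called). Foxn1 mutants minus wild type stayed small, from -0.53 for Tap2 to 0.40 for Psmb9 with SEs of 0.26 to 0.44, and 0 were called (0% of all clusters). The comparisons share groups, so they are not independent of each other. Without F2 the Foxn1 mutants (F1 and F3) carry 1 date code of the sample titles and the Tbx1 mutants only the other codes, so these differences could not be seen within a code. Over all 9 arrays, with the date code as a fixed block, Foxn1 minus Tbx1 mutants was -6.05 for Psmb9, -3.11 for Psmb8, -1.07 for H2-D1 and -3.69 for Psmb10. In that fit F2 is the only Foxn1 mutant array that shares a code with a Tbx1 mutant. On F2 Psmb9, Psmb10 and H2-D1 were below the negative-control median.

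**Figure D4:**
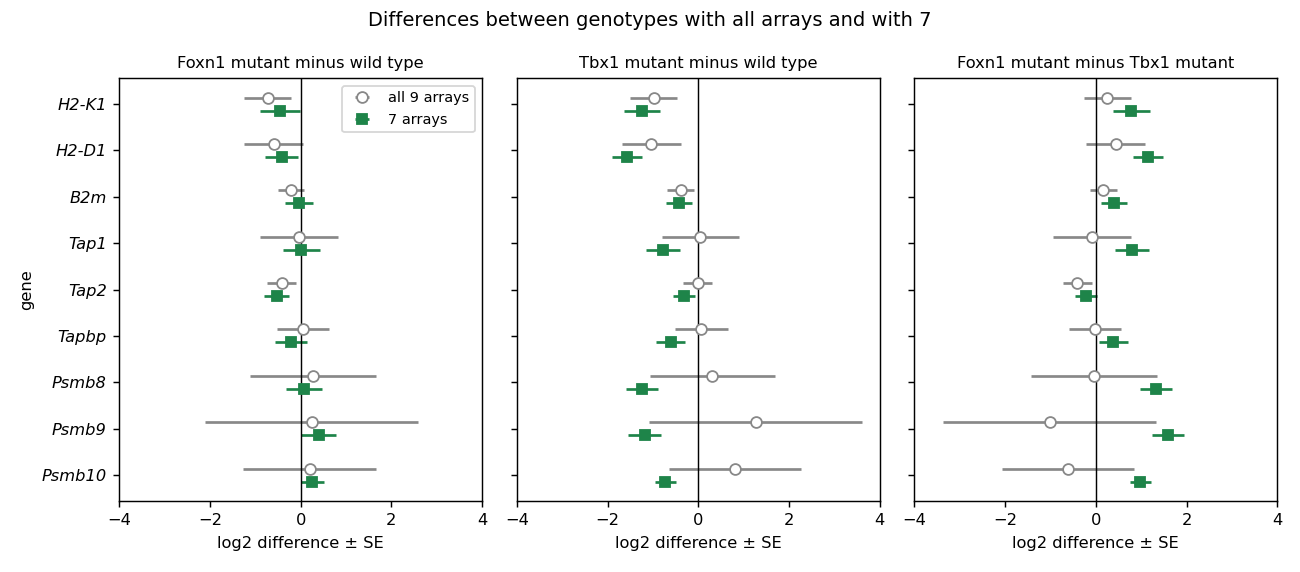
Log2 difference (horizontal axis, points with SE from limma) of each member in the 3 comparisons, in grey over all 9 arrays and in green without W1 and F2. Without those arrays the Tbx1 minus wild type points all lie below 0, from -0.32 for Tap2 to -1.57 for H2-D1, and the SE of Psmb9 is 0.36.

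The sample titles hold 3 date codes, here A (W3, F2 and T1), B (W2, F1 and F3) and C (W1, T2 and T3). The sources used here do not say what they stand for. Each difference within a code sets 1 or 2 arrays against 1. The share of all clusters on the same side was not counted for them. Within code A the Tbx1 mutant was below the wild type array for 8 of 9 members (median -0.84), with -1.18 for Psmb9, -0.84 for H2-D1 and -0.38 for H2-K1. Within code C, whose only wild type array is W1, 6 of 9 were higher in Tbx1 mutants (median 1.52), with 6.19 for Psmb9, -0.01 for H2-D1 and -0.53 for H2-K1. Foxn1 mutants minus wild type had a median of -1.93 in code A, which rests on F2, and -0.36 in code B, where H2-K1 was -1.20, H2-D1 -1.04 and Psmb9 0.34. Foxn1 minus Tbx1 mutants could be set within code A only, as F2 against T1, where all 9 members were lower (median -1.09). This value too rests on F2, and without W1 and F2 8 of 9 members were higher.

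The wider pathway was read from 9 lists with 115 genes, of which 104 had a cluster, and none of the 104 was called in any comparison, higher or lower, with or without both arrays. At an unadjusted p under 0.05 in any of the tests over all arrays, 4 of 104 passed, a smaller share than that of all clusters (8.28%). Of 15 class I like genes, Fcgrt, a neonatal Fc receptor, averaged 6.76 ± 0.52, 7.62 ± 0.50 and 7.26 ± 0.09 (SD, n = 3) in wild type, Foxn1 mutants and Tbx1 mutants, and H2-T22 read 6.53 to 7.95. H2-T23, a nonclassical class I gene, read 7.43, 7.82 and 7.34 in Tbx1 mutants, below the 4 arrays named above (7.97 to 9.05). Only 2 of the 15 did so, and 5.71% of all clusters. The other was H2-Bl, which exceeded the negative-control median on 0 arrays. Without W1 and F2 the list's median for Tbx1 mutants minus wild type was -0.016. W1 and F2 were the lowest arrays for 1 of 15.

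Of 8 loading genes, the chaperone Calr read 11.94 to 12.57 and Uggt1, a sensor of glycoprotein folding, 11.88 to 13.03. Tapbpl, a tapasin relative, read 5.54 and 6.04 on the 2 low arrays against 6.71 to 8.03, and Erap1, which trims peptides, 5.90 and 5.19 against 7.97 to 9.14. These 2 and Hspa5 were the 3 of 8 with those arrays lowest.

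Of 9 activator and assembly genes 7 had them lowest. Psme1 and Psme2, whose products form the interferon-induced cap of the proteasome, read 13.25 and 13.84, and 11.61 and 12.60, on these arrays, against 14.34 to 15.17 and 13.33 to 14.05 on the others. Both were lower on the Tbx1 mutant arrays than on the 4 arrays named above. Psmg1, an assembly chaperone, read 7.97 to 9.10 and Psme4, another activator, 9.08 to 10.14. Of the core subunits Psma1 read 13.57 to 14.68 and Psma4 10.23 to 11.59. Of the 11 core subunits 7 had their Tbx1 mutant arrays below those 4, as 5.71% of all clusters did. The differences were small: without W1 and F2 their median for Tbx1 mutants minus wild type was -0.21.

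Of 11 regulators of class I and II promoters, Rfxank read 7.90 to 9.19 and Nfyb, an NF-Y subunit, 7.98 to 8.83, and 2 of 11 (Irf1 and Nfya) had the 2 low arrays lowest. Irf1, an interferon-induced factor, read 5.57 and 4.66 there, against 6.11 to 7.32. Of 10 interferon signalling genes, Irf9 averaged 6.96 ± 0.31, 6.99 ± 0.30 and 6.35 ± 0.34 (SD, n = 3) in wild type, Foxn1 mutants and Tbx1 mutants, and Stat2 7.90 ± 0.18, 7.45 ± 0.28 and 7.41 ± 0.30. In this list 3 of 10 had the 2 arrays lowest.

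Of 18 interferon-induced genes 8 had the 2 arrays lowest, and 6 (Gbp7, Irgm1, Irgm2, Igtp, Bst2 and Ifi35) had the Tbx1 mutants below the 4 other arrays. Over all clusters these shares were 12.1% and 5.71%. Igtp, an interferon-induced GTPase, read 3.28 and 4.18 on the 2 arrays, 5.78 to 6.27 in Tbx1 mutants and 6.46 to 7.37 on the 4. Usp18, a brake on interferon signalling, averaged 5.35 ± 0.23, 4.37 ± 0.40 and 4.68 ± 0.26 (SD, n = 3) in the 3 genotypes, and Ifit3 4.65 ± 0.30, 3.80 ± 0.37 and 4.15 ± 0.47, both near background.

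Chromosome 17 holds 7 of the 10 members. Of 19 neighbours from the MHC region outside the pathway, 1 had the 2 arrays lowest, and their ranges had a median of 0.86 log2 units. Among them Rgl2 read 3.69 to 5.24 and Abcf1 9.43 to 10.31.

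The pattern of the members, each centred on its own mean and then averaged, was -1.78, 1.24 and 0.67 in wild type, 0.70, -1.99 and 1.01 in Foxn1 mutants, and 0.03, 0.31 and -0.18 in Tbx1 mutants. Tap1 lay nearest to it among the members, with a root mean square difference of 0.28 log2 units over the 9 arrays, and Psmb9 farthest, with 1.93. Among 10319 other named clusters above background, the nearest were B3gnt2 (0.17), Tuba4a (0.18), Kbtbd11 (0.20), Lgals9 (0.21) and Serpinb1a (0.23). B3gnt2, a glycosyltransferase gene, read 7.49, 10.21 and 9.71 in wild type, 9.99, 7.52 and 10.11 in Foxn1 mutants, and 9.13, 9.29 and 9.16 in Tbx1 mutants. The likeness is a description over 9 arrays and is led by the 2 low ones.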

How the data were processed

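Total RNA of fetal thymic lobes, amplified and biotin-labelled per the labels' protocols, was measured on Clariom S mouse arrays. The authors deposited log2 values for 28846 features, and these were used as given. The sources used here do not name the software, the normalization or the genome build. The 6640 control features were left out, 5222 of them negative controls. Of the remaining 22206 clusters 19572 had 1 gene symbol and 2634 none. For 142 clusters the values were a copy of another cluster's, and no member was among these. Medians of the arrays lay between 5.09 and 5.20.

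Samples were grouped by labelled genotype. The model, in limma 3.58.1 under R 4.3.3 (files read with version 1.17.8 of data.table), had 1 mean per genotype over the 9 arrays, with empirical Bayes moderation, two-sided tests and adjustment over all clusters. The script was tested on simulated data. Alternatives were quantile normalization, median centring, filters on low means, array weights, trended robust moderation, a fixed or random block for the date code, fits on the compared groups only, each array left out, both low arrays left out, and a threshold of 0.1.

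The members and lists were chosen with earlier results of these data known, so list counts are descriptions. The text names the members, Foxn1 and Tbx1, per list the called genes and the 2 genes of lowest F test p, and 5 genes of nearest pattern. Other genes (Prss16, Ptprc, H2-T23, Erap1, Tapbpl, Psme1, Psme2, Psmb6, Irf1, Igtp and those named as the members of a count) and the promoter arrangement were picked after their values or sequences were seen.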

Additional observations from a re-analysis of the deposited data

How the results depend on the processing

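None of the 27 member differences was called under any alternative (lowest adjusted p 0.318, limma), and the counts of called members stayed at 0 throughout, also with each array left out (0 to 0). Directions were less stable: 77 of 510 alternative values had the opposite sign, 38 of them with 1 array left out. Many of the 510 could not turn. The filters, trended robust moderation, fits on the compared groups only, and leaving out an array of the third genotype do not change a member's difference. Below, F, T and W stand for Foxn1 mutants, Tbx1 mutants and wild type, and W1 and F2 for the 2 arrays that stood apart.

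With the date code as a fixed block the member median moved to -1.27 for F minus W and -1.28 for F minus T, and signs turned for F minus T in H2-K1 (-0.82), H2-D1 (-1.07) and B2m (-0.33), for F minus W in Psmb8 (-1.27), Psmb9 (-2.27), Psmb10 (-1.34) and Tapbp (-0.58), and for T minus W in Tap2 (0.22). As a random block (correlation 0.0632) it turned F minus W in Psmb9 (-0.010) and Tapbp (-0.015) and T minus W in Tap2 (0.012). Median centring turned F minus W in Tap1 (0.017) and T minus W in Tap2 (0.047), and quantile normalization the same values to 0.012 and 0.041.

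Array weights turned T minus W in Tap1 (-0.47), Tapbp (-0.39), Psmb8 (-0.71), Psmb9 (-0.31) and Psmb10 (-0.16), F minus T in Tap1 (0.40), Tapbp (0.23), Psmb8 (0.66), Psmb9 (0.39) and Psmb10 (0.25), and F minus W in Psmb8 (-0.053) and Tapbp (-0.16). Leaving out both W1 and F2 turned T minus W in Tap1 (-0.79), Tapbp (-0.61), Psmb8 (-1.25), Psmb9 (-1.19) and Psmb10 (-0.73), F minus T in Tap1 (0.80), Tapbp (0.39), Psmb8 (1.32), Psmb9 (1.58) and Psmb10 (0.98), and F minus W in Tap1 (0.017) and Tapbp (-0.22). The cause of the other turns was not tested.

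With each array left out in turn, F minus W ranged from -0.98 to 0.46 for the member median, and signs turned in H2-D1 -1.13 to 0.12, B2m -0.36 to 0.0042, Tap1 -0.87 to 0.85, Tapbp -0.63 to 0.64, Psmb8 -1.29 to 1.63, Psmb9 -2.21 to 2.85 and Psmb10 -1.34 to 1.79. With each array left out in turn, T minus W ranged from -0.79 to 0.55 for the member median, and signs turned in Tap1 -0.79 to 0.55, Tap2 -0.32 to 0.15, Tapbp -0.61 to 0.66, Psmb8 -1.25 to 1.25, Psmb9 -1.19 to 2.52 and Psmb10 -0.73 to 1.67. With each array left out in turn, F minus T ranged from -0.50 to 0.80 for the member median, and signs turned in H2-K1 -0.16 to 0.78, B2m -0.032 to 0.39, Tap1 -0.55 to 0.80, Tapbp -0.31 to 0.39, Psmb8 -0.93 to 1.32, Psmb9 -2.53 to 1.58 and Psmb10 -1.54 to 0.98.

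The mean of all clusters of a symbol gave nothing new, since each measured member had 1 cluster. The filters kept 16654 and 11534 clusters, and Tap2 had no value under the stricter one. Tap2 did not exceed the negative-control median on 3 of 9 arrays, Psmb9 and Psmb10 on 2, and H2-D1 and Psmb8 on 1, which limits what these values can show. No paired analysis was possible because any 2 genotypes share at most 1 of the numbers that follow the # sign in the sample titles. The date codes of the titles are shared more widely and were used as a block instead.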
